A study of Sus scrofa with 48 samples.

Results

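Ribosomal protein mRNAs of longissimus muscle were compared between 2 pig lines selected in opposite directions for residual feed intake (RFI), which is the intake left over once the intake predicted for each animal is subtracted. The members were the probes of a 60 K porcine oligonucleotide microarray that carry the symbol of a cytosolic ribosomal protein, that is RPL or RPS followed by a number, or RPLP0, RPLP1, RPLP2 or RPSA, without the RPS6K kinases (13 probes). The rule found 300 of the 60305 distinct probes, for 85 symbols, and 292 of them gave a signal well above background in 12 or more of the 48 pigs. These 292 probes stood for 83 symbols, with 169 probes of 48 large subunit genes and 123 probes of 35 small subunit genes. Of the 8 probes left out, 1 was the single probe of RPL13 and 1 the single probe named RPS4X, and the other 6 belonged to genes that kept other probes. The names are those of the array's design, and they included 16 probes of paralogues, 6 probes with a pseudogene name and 1 probe of RPS19BP1, which binds a ribosomal protein but is not one.

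The 48 pigs were purebred Large White barrows, all fed ad libitum, in 4 groups of 12. They belonged to the low RFI line or the high RFI line, and received either a high fat, high fiber diet (HF diet) or a low fat, low fiber diet (LF diet). The age of the animals was not given in the sources used here. Whole muscle was homogenised, so that fewer cells of a type and less RNA per cell cannot be told apart. Levels are on a log2 scale on which 0 is the mean of the 42125 tested probes of the same array, and every difference is high RFI minus low RFI, or HF minus LF, on that scale.

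Each ribosome is built of a large and a small subunit, in which ribosomal RNA is bound by a set of proteins that are needed in matched amounts. In mammals the mRNAs of these proteins begin with a tract of pyrimidines (TOP mRNAs), through which mTOR and its partner LARP1 set their translation according to nutrient supply. In muscle, the number of ribosomes limits how much protein can be made and follows growth and loading. Striated muscle also has its own form of one large subunit protein, RPL3L, which replaces RPL3 in mature fibers.

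Probes of the genes described in most detail are shown first, 60 bases each and copied from the array files. The first 5 probes of RPL6 are in the order of their starts in the transcript, and the start of the last was not given. The capitals mark the stretch of 12 bases shared by the 7 RPL6 probes that start between bases 644 and 692 of it.
RPL6 probe A_72_P729518: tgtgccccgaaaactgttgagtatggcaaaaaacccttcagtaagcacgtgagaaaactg
RPL6 probe A_72_P719128: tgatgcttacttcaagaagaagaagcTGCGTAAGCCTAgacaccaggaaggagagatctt
RPL6 probe A_72_P722393: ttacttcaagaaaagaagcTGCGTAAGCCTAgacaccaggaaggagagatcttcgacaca
RPL6 probe A_72_P734143: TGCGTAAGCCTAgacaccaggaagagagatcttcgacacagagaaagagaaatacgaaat
RPL6 probe A_72_P727278: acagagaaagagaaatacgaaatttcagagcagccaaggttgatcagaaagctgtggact
RPL6 probe CUST_396_PI427286967: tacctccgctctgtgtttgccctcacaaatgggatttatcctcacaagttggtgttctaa

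The next are a probe of RPL14, whose probes were all called lower in high RFI pigs, the brighter probes of RPL38 and RPL35, which are set below against dimmer probes with larger differences, the RPS13 probe with the larger difference, and the single probes of RPL3 and RPL3L, whose differences were positive.
RPL14 probe A_72_P563904: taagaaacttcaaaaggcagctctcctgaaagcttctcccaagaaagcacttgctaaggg
RPL38 probe O12413: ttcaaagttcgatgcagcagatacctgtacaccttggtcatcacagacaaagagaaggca
RPL35 probe A_72_P440021: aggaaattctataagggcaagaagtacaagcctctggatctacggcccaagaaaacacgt
RPS13 probe O11240: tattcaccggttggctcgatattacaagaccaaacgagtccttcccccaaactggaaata
RPL3 probe A_72_P065101: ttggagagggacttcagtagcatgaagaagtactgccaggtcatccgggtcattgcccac
RPL3L probe O10058: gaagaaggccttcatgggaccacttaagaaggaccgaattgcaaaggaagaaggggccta

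Most ribosomal protein probes were bright. The mean level of the 292 probes over all pigs ranged from -4.48 to 10.16, with a median of 7.33 against -0.44 for all tested probes, and 83.2% of them were brighter than 90% of all tested probes. The brightest was a probe of RPLP1, a protein of the stalk that calls elongation factors to the ribosome. Levels of different probes depend on how well each probe binds and were not compared as amounts of mRNA.

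Averaged over the probes, nearly all pigs of the high RFI line had less ribosomal protein signal than the middle pig of the low RFI line. With the HF diet the mean level of the 292 probes lay between 6.29 and 6.72 in the low RFI line, with a median of 6.51, and between 6.07 and 6.47 in the high RFI line, with a median of 6.32. With the LF diet it lay between 6.41 and 6.65 in the low RFI line, with a median of 6.49, and between 6.25 and 6.52 in the high RFI line, with a median of 6.35. The lines overlapped, but 22 of 24 high RFI pigs were below the median of the low RFI line. The mean was 6.51 ± 0.11 (SD, n = 24) in low RFI and 6.33 ± 0.10 (SD, n = 24) in high RFI pigs. It was lower in the high RFI line on all 6 slides, each of which held 2 arrays of every group, by 0.077 to 0.262. Other probes of a similar level were also lower in that line on all 6 slides, with differences of -0.101 to -0.034.

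**Figure D1:**
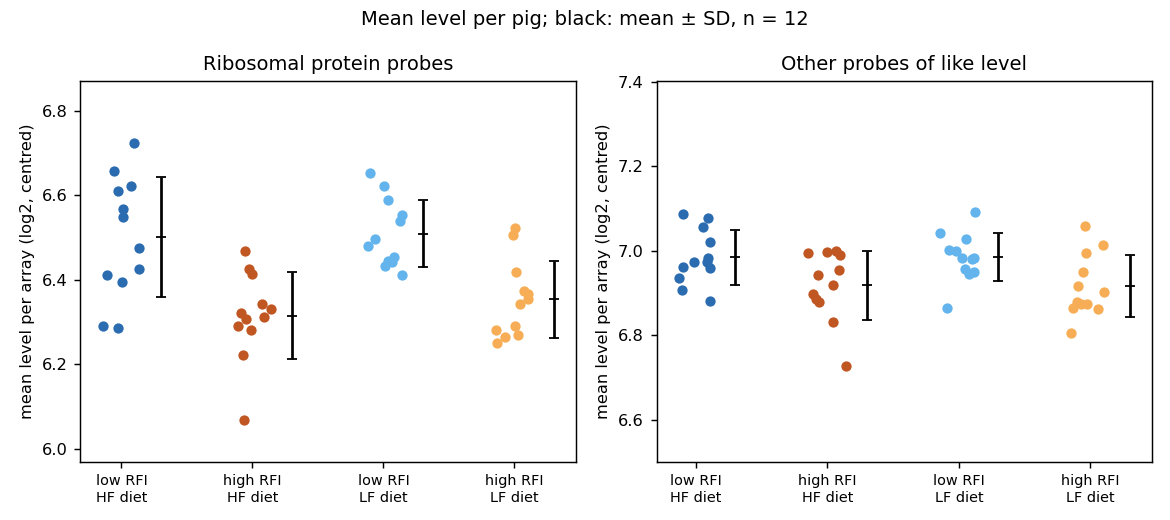
Mean level of the 292 ribosomal protein probes (left) and of 1167 other probes with a similar level (right) in each of the 48 pigs, on a log2 scale centred on the array mean, with the mean ± SD of each group of 12 in black. Both panels span the same range, and the high RFI groups lie lower in both, by 0.171 on average for the ribosomal protein probes and by 0.068 for the other probes.

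Probe by probe, 209 of the 292 ribosomal protein probes (71.6%) were at a lower level in high than in low RFI pigs and none at a higher one (limma, Benjamini-Hochberg adjusted p under 0.05 over all tested probes), whereas 9.85% of all tested probes were called lower and 6.57% higher. The difference was negative for 283 of the 292 probes, and for 24535 of all 42125 tested probes. Its median was -0.15, a 1.11-fold lower level, against -0.03 over all tested probes. Counts and medians were close in both subunits, with 122 of 169 large subunit probes called and a median of -0.15, and 87 of 123 small subunit probes called and a median of -0.15. When each gene was represented by its brightest probe, 60 of 83 genes were called lower, 33 of 48 in the large and 27 of 35 in the small subunit, and 80 of the 83 differences were negative. The share of all genes called at their brightest probe was not counted. As means over the probes of a gene, 59 of the 83 were called lower, where 11.1% of all 10080 symbols were. These means could take in probes assigned to a symbol only through their transcript, as at RPLP0.

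The size of this common shift depended on how arrays were scaled to each other. With quantile normalization 62 probes were called lower and 1 higher, where 8.25% of all tested probes were called lower and 6.68% higher, and the median was -0.06. When arrays were centred on other probes of a similar level instead, 68 probes were called lower and 2 higher, and the median was -0.09, while 3.1% of all tested probes were then called lower and 11.9% higher. Without the filter on dim probes 93 of 300 probes were called, where 3.23% of all probes were called lower. Under each of the 14 alternatives the median of either subunit stayed negative. The median over all tested probes was also negative, from -0.0334 to -0.0188, under all but 1 of them. The exception was the centring on other probes of a similar level, with 0.0382.

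Bright probes of other genes were also called lower. Between levels of 6.03 and 8.26, the middle of the range of the ribosomal protein probes, 121 of 146 of these (82.9%) were called lower, with a median of -0.16, whereas 260 of 1167 other probes (22.3%) were called lower and 35 higher, with a median of -0.08. Above a level of 9 the shares were 81.2% of 16 and 35.1% of 339 probes, and below a level of 0 they were 7.14% of 14 and 5.84% of 23125. The median signal of the arrays ranged from 52.8 to 79.3 in low RFI and from 55.6 to 107.9 in high RFI pigs, and with this brightness as a covariate 172 probes were called lower, where 7.31% of all tested probes were. The part of array brightness in the shift was not tested further.

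**Figure D2:**
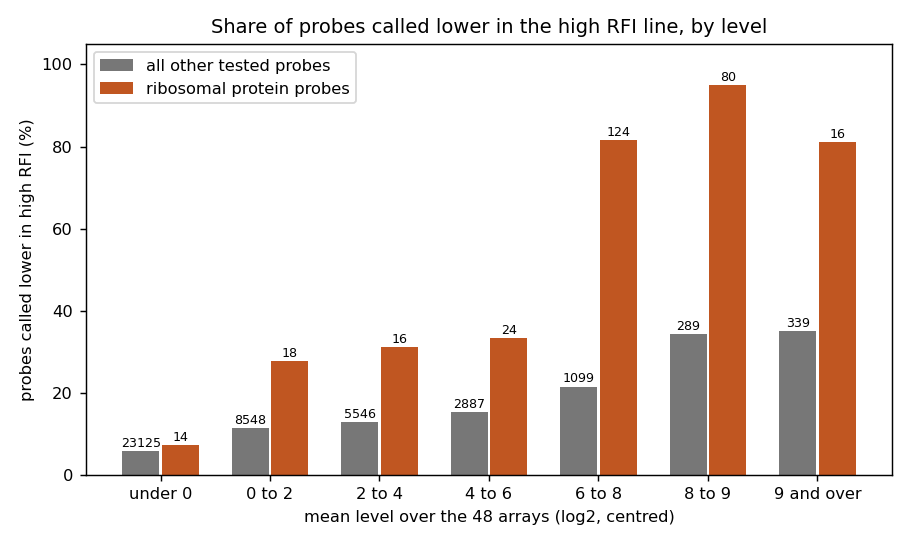
Share of probes called lower in the high RFI line (adjusted p under 0.05), in 7 classes of the mean level over the 48 arrays, for ribosomal protein probes and for all other tested probes. The number above each bar is the number of probes in the class. In the class from 8 to 9, 95.0% of 80 ribosomal protein probes and 34.3% of 289 other probes were called lower.

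Markers of the cell types that muscle can hold were read against the 6.57% of all tested probes called higher and the 9.85% called lower. Of the probes of macrophage markers 18 of 29 (62.1%) were called higher in the high RFI line and none lower, and the mean level of the list ranged from -1.89 to -0.01 in low RFI and from -1.30 to 1.41 in high RFI pigs. Of the adipocyte markers 10 of 59 probes (16.9%) were called higher, of FABP4 and LIPE, and of the fibroblast markers 4 of 37 (10.8%), of COL1A1 and COL1A2. Of the skeletal muscle markers, whose mean level was from 8.75 to 9.18 in low RFI and from 8.57 to 9.05 in high RFI pigs, 46 of 142 probes (32.4%) were called lower and none higher, but with quantile normalization 10 (7.04%) were called lower and 1 higher, where 8.25% of all tested probes were called lower. The median level of the muscle marker probes was 9.72, and 35.1% of the probes above a level of 9 that are not members were called lower. The defining markers of muscle, such as ACTA1, CKM and MYH4, were measured. Endothelial, erythroid, lymphocyte and satellite cell markers had 2 of 19, 1 of 5, 1 of 13 and 1 of 11 probes called, all higher, and the shares of the endothelial (10.5%), lymphocyte (7.69%) and satellite cell (9.09%) markers were near that of all probes. The part of the cell types in the ribosomal protein difference was not tested.

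A few genes had probes that differed by much more than the common shift, and 20 called probes of 5 genes had differences beyond -0.3. The genes were RPL38, RPL35, RPL14, RPL6 and RPS13, of which the first 4 are large subunit genes. Only RPL14 was beyond -0.3 at all its probes. At their brightest probes RPL38, RPL35, RPL6 and RPS13 had -0.09, -0.19, -0.11 and -0.17. Of all members 53 probes of 24 genes were called in the same direction under every alternative, among them 11 of the 15 probes of RPL6, 6 of the 7 probes of RPL14, both dim probes of RPL35 and 1 of the 2 probes of RPL38. How many of all tested probes lie beyond -0.3, or keep their call under every alternative, was not counted.

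**Figure D3:**
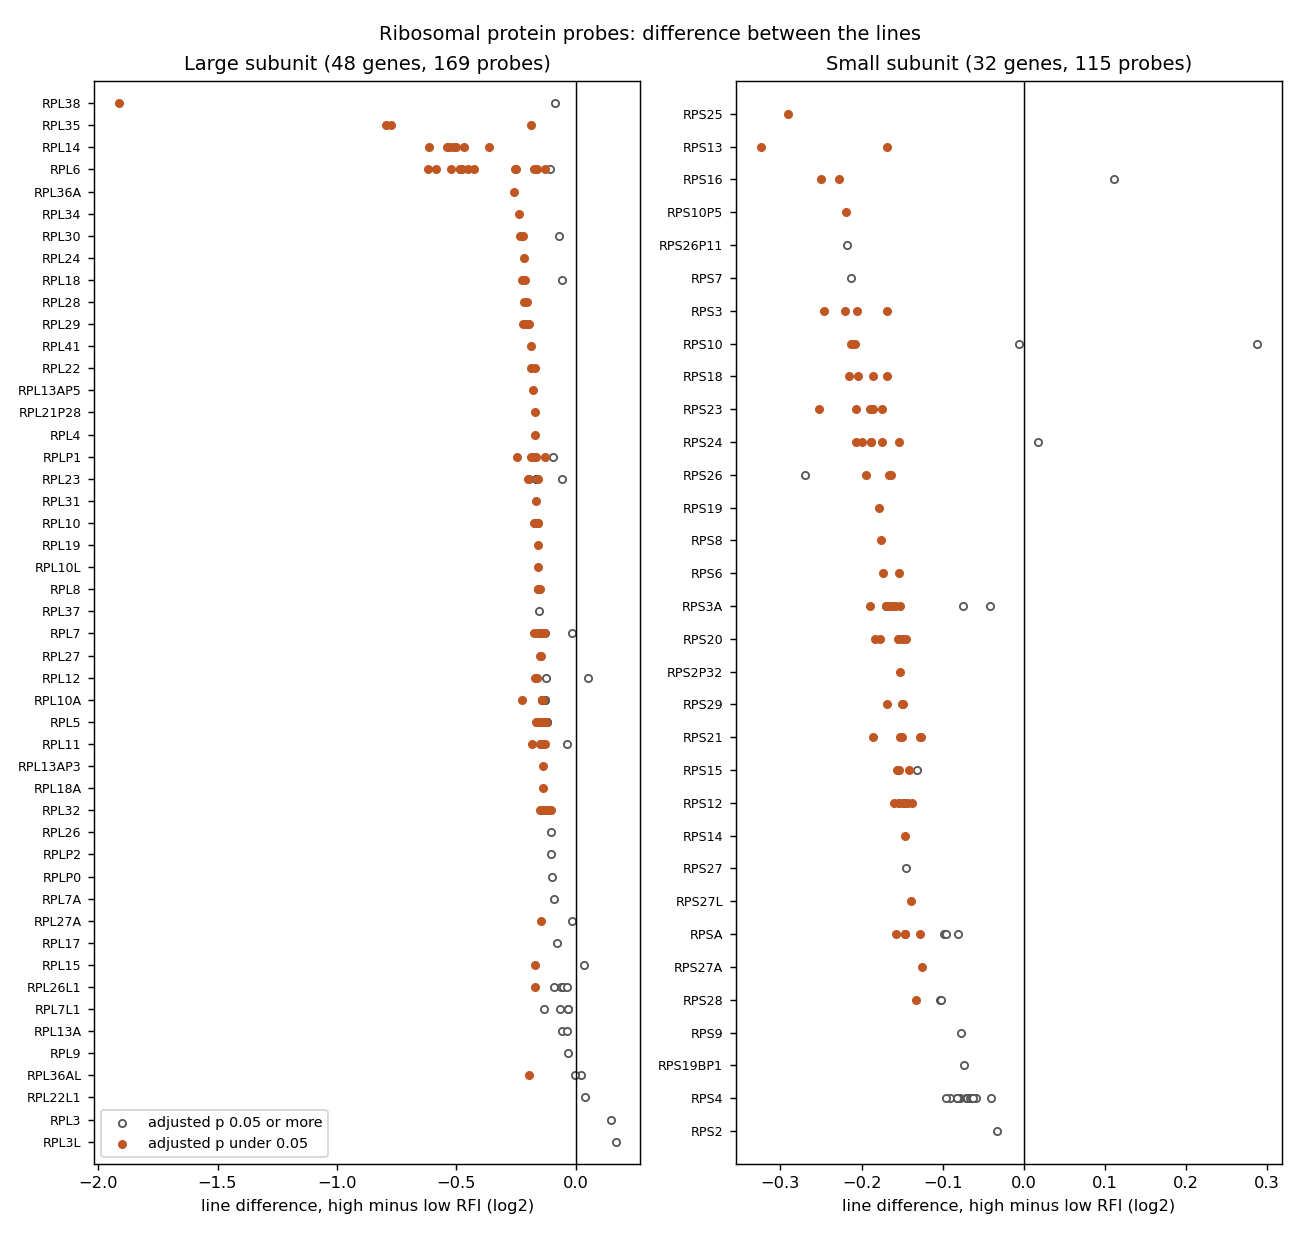
Line difference (high minus low RFI, log2) of 284 tested probes of 80 ribosomal protein genes, with genes ordered by their median and the axes of the 2 panels on different scales. Filled points had an adjusted p under 0.05. Most probes lie between -0.3 and 0, RPL38, RPL35, RPL14 and RPL6 extend further, and RPL3 and RPL3L lie to the right of 0.

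RPL14, a protein of the large subunit, was lower in high RFI pigs at all 7 of its probes, with differences from -0.36 to -0.61. At its brightest probe, A_72_P655183, the level lay between 7.42 and 8.22 (median 7.82) in low RFI pigs, against 6.92 to 7.80 (median 7.27) in high RFI ones. All 24 high RFI pigs were below the low RFI median, and 22 of them were below every low RFI pig. The level fell by 0.53 (standard error 0.06, limma adjusted p = 9.63e-09), a 1.44-fold difference, with -0.52 under HF feeding and -0.54 under LF feeding. The 5 probes that start at bases 396 to 637 of the RPL14 transcript differed by -0.47 to -0.54.

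RPL6, another large subunit protein and one of the study's predictors of feed efficiency, which were chosen on these pigs among others, was lower at each of its 15 probes, of which 14 were called. The size followed the place of the probe in the transcript. The 9 probes that start between bases 617 and 692 differed by -0.43 to -0.62, and the other 6 by -0.11 to -0.26. Within the first set were the 7 probes that share the 12 bases in capitals above, with -0.43 to -0.52. No other probe of the array held this stretch. The study also measured RPL6 by qPCR, over all pigs of its experiments, and reported no significant difference between the lines. That qPCR was normalised with RPL4 and TBP1, and the array level of RPL4 is given below. The part of RPL4 in the qPCR result was not tested.

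The difference changed within a short distance. The probe at base 692, which begins with the shared stretch, had a difference of -0.49 (standard error 0.06), the probe at base 708 had -0.26 (standard error 0.04) and the probe at base 730 had -0.17 (standard error 0.04). Upstream, the probe at base 387 had -0.16 (standard error 0.04). Neighbouring probes overlap in sequence but are rarely shifts of one another, since of 10 overlapping pairs 1 matched letter for letter at the offset of their starts, so that they represent different designs of the same region.

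The values per pig are given for 1 probe of each set. At probe A_72_P722393 (base 672) the level of RPL6 lay between 7.18 and 7.79 (median 7.54) in low RFI pigs, against 6.69 to 7.54 (median 6.99) in high RFI ones, and 19 of 24 high RFI pigs were below every low RFI pig (limma adjusted p = 6.83e-08). At the brightest RPL6 probe, CUST_396_PI427286967, it lay between 8.70 and 9.19 (median 8.97) in low RFI pigs, against 8.48 to 9.14 (median 8.84) in high RFI ones, and the lines overlapped over most of this range (difference -0.11, limma adjusted p = 0.0645). No probe of RPL6 had a line by diet interaction.

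**Figure D4:**
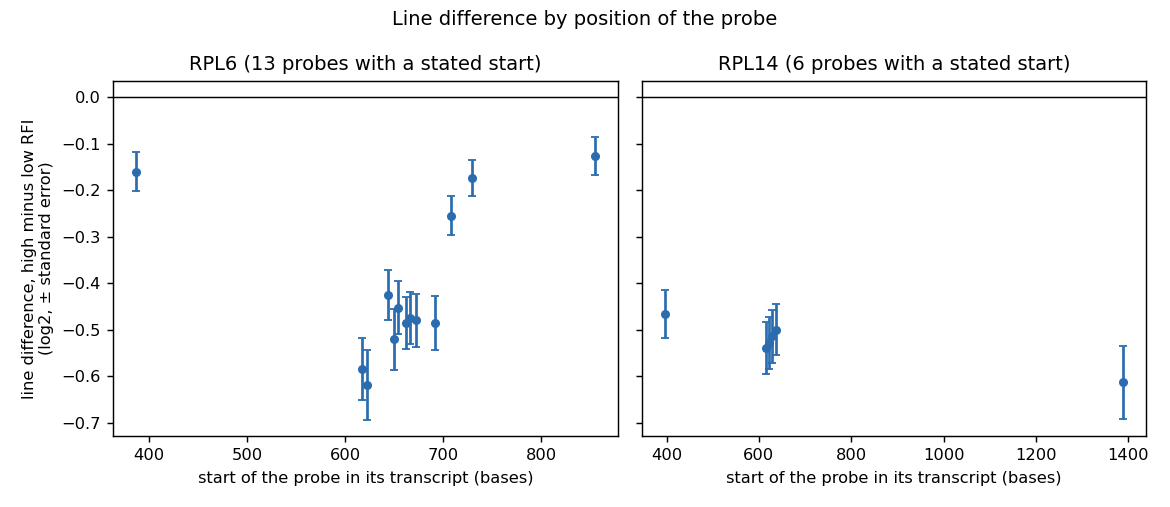
Line difference (high minus low RFI, log2, with its standard error) of the probes of RPL6 and RPL14 against the first base of the probe in its transcript, for probes with a stated start. For RPL6 the 9 probes from 617 to 692 lie below -0.4 and the 4 other probes shown lie above -0.3, and for RPL14 the 6 probes lie between -0.47 and -0.61.

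RPL38, a small protein of the large subunit that is known for its part in the translation of Hox mRNAs in the embryo, had the largest difference of any member, but at 1 of its 2 probes. At A_72_P016041 and with the HF diet, the level lay between 3.49 and 6.95 in the low RFI line, with a median of 5.90, and between 3.45 and 5.51 in the high RFI line, with a median of 3.64. With the LF diet it lay between 3.70 and 6.80 in the low RFI line, with a median of 5.94, and between 3.55 and 5.75 in the high RFI line, with a median of 3.92. The values fell into 2 separate ranges, with no pig between 4.33 and 5.42. Of the high RFI pigs 21 were below this gap and 3 above it, and of the low RFI pigs 2 were below it and 22 above it. No other member probe had a wider gap between neighbouring pigs, and the median of the widest gaps was 0.118. The mean fell by 1.91 (standard error 0.21, limma adjusted p = 1.99e-08), a 3.76-fold difference.

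The other RPL38 probe, O12413, whose sequence is shown above, was brighter and spanned a narrower range. Its level lay between 7.84 and 8.36 (median 8.12) in low RFI pigs, against 7.48 to 8.31 (median 8.10) in high RFI ones, and the difference was -0.09 (standard error 0.05, limma adjusted p = 0.21).

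RPL35, which lies near the exit of the peptide tunnel, showed the same kind of disagreement. Its bright probe A_72_P440021 lay between 8.18 and 8.76 (median 8.47) in low RFI pigs, against 7.95 to 8.55 (median 8.28) in high RFI ones, and the line difference was -0.19 (limma, standard error 0.04, adjusted p = 0.00212). Its dim probe O809 lay between 0.63 and 2.24 (median 1.51) in low RFI pigs, against -0.01 to 1.85 (median 0.46) in high RFI ones, and the line difference was -0.80 (limma, standard error 0.15, adjusted p = 2.63e-04). At the dim probe 17 of 24 high RFI pigs were below every low RFI pig, and 4 low RFI pigs were above every high RFI pig. As at the dimmer RPL38 probe, the values left a gap, with no pig between 0.73 and 1.23 and both lines on each side. Another probe, A_72_P385723, has the same 60 bases as O809 and gave -0.77.

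**Figure D5:**
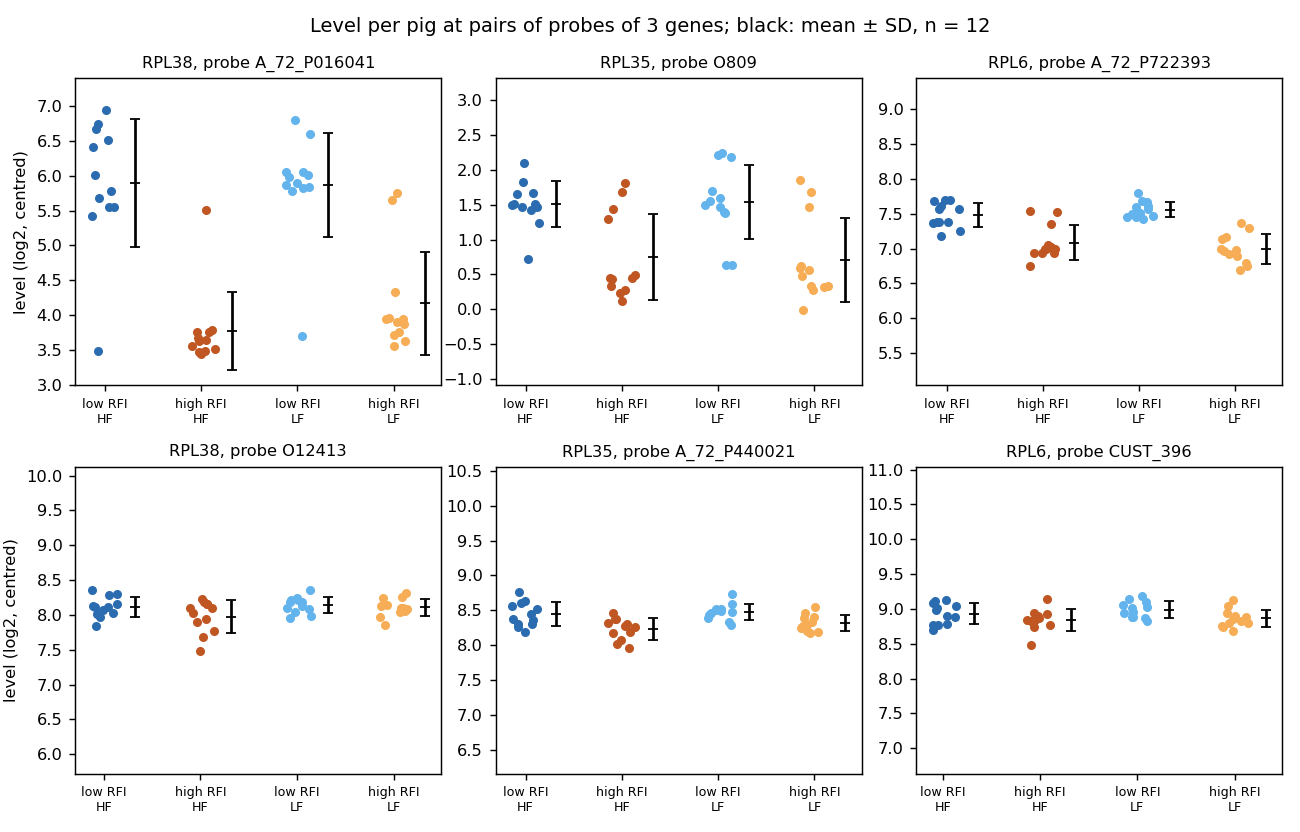
Level (log2, centred on the array mean) of RPL38, RPL35 and RPL6 in each pig at a probe with a large line difference (top row) and at another probe of the same gene (bottom row), with the mean ± SD of each group of 12 in black. All panels span 4.4 log2 units. The RPL38 values of the upper probe fall into 2 ranges that are not seen at the lower probe. At the upper RPL35 probe no pig lies between 0.73 and 1.23.

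Repeats of the same sequence gave nearly the same difference. The array held 5 pairs of members with identical sequences, of RPL11, RPL27, RPL29, RPL35 and RPS10 with RPS10P5. The line differences within a pair were 0.0041 to 0.0221 apart, and the values of the same pig differed with an SD of 0.0418 to 0.103. The gaps between probes of RPL38, RPL35 and RPL6 were larger than this. Probes named RPS10P5, RPL36AL or RPL26L1 can also bind mRNA of RPS10, RPL36A or RPL26, from which they differ little, so that these names are uncertain.

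In the small subunit the largest differences were those of RPS13 and RPS25. RPS13 at probe O11240 lay between 7.75 and 8.34 (median 7.92) in low RFI pigs, against 7.34 to 7.84 (median 7.60) in high RFI ones, and 21 of 24 high RFI pigs were below every low RFI pig. Its difference was -0.32 (standard error 0.04, limma adjusted p = 2.81e-07), against -0.17 at its other probe. RPS25, which some viral and cellular mRNAs need for initiation at internal sites, lay between 7.34 and 8.13 (median 7.73) in low RFI pigs, against 7.15 to 7.68 (median 7.43) in high RFI ones, and the line difference was -0.29 (limma, standard error 0.05, adjusted p = 2.34e-04).

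Several other genes were called at all their probes. All probes were called lower in 13 of the 37 genes with at least 3 tested probes, and none in 2. How many of all genes with at least 3 tested probes were called at every probe was not counted. Besides RPL35 and RPL14, these 13 included RPS3, at the mRNA entry of the small subunit, with -0.21 over 4 probes, RPL29 with -0.20 over 4, RPS18 with -0.20 over 4, RPS23, in the decoding centre, with -0.19 over 6, RPL8 with -0.16 over 3, RPS20 with -0.15 over 8 and RPS29 with -0.15 over 3. RPL5 and RPL11, which carry the 5S rRNA into the ribosome and bind MDM2 when left over, had 14 of 19 and 4 of 5 probes called, with medians of -0.14 and -0.14. All RPL5 probes differed by -0.12 to -0.17. With quantile normalization RPL14 was still called at all 7 probes, RPS3 at 3 of 4, RPL35 at 2 of 3, RPL29 and RPS18 at 2 of 4 and RPS23 at 2 of 6, while RPL8, RPS20, RPS29, RPL5 and RPL11 had no call.

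Several ribosomal proteins have functions of their own. RPS6, the substrate of the S6 kinases, was called at both probes, with -0.15 and -0.17. RPSA, also known as a laminin receptor, was called at 4 of 7 probes, with -0.08 to -0.16. RPS19, which is mutated in Diamond-Blackfan anaemia, had -0.18 (limma adjusted p = 0.0088) and RPL23, which binds MDM2, was called at 3 of 6 probes. Both are in the predictor lists of the study. With quantile normalization RPS19 was still called, with -0.16, while RPS6, RPSA and RPL23 had no call.

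Of the stalk, RPLP1 was called at 5 of 6 probes, with -0.09 to -0.25. Under the rule RPLP0 and RPLP2 had 1 probe each, with -0.10 (limma adjusted p = 0.267) and -0.10 (limma adjusted p = 0.0513). As a mean that takes in probes assigned to it only through their transcript, RPLP0 was called lower, with -0.14 (limma adjusted p = 0.0143). RPL4, which the study used with TBP1 to normalise its qPCR, lay between 6.89 and 7.43 (median 7.17) in low RFI pigs, against 6.73 to 7.23 (median 6.98) in high RFI ones, and the line difference was -0.17 (limma, standard error 0.04, adjusted p = 0.00601). With quantile normalization it had -0.10 (adjusted p = 0.101) and was not called.

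RPL3 and its muscle form RPL3L were the members with the largest differences in the other direction among genes with 1 probe, although neither was called. RPL3L lay between 5.46 and 6.04 (median 5.70) in low RFI pigs, against 5.46 to 6.48 (median 5.90) in high RFI ones, and the line difference was 0.17 (limma, standard error 0.07, adjusted p = 0.0736). The lines began at the same level, and the highest values were those of high RFI pigs. RPL3 lay between 2.50 and 3.20 (median 2.86) in low RFI pigs, against 2.54 to 3.61 (median 2.99) in high RFI ones, and the line difference was 0.15 (limma, standard error 0.06, adjusted p = 0.09). Both were called higher under some alternatives. RPL3L was called with quantile normalization, with 0.21 (limma adjusted p = 0.0372), with normexp background correction (adjusted p = 0.0385) and over probes well above background on all 48 arrays (adjusted p = 0.0462). RPL3 was called with normexp, with 0.185 (limma adjusted p = 0.0174), and with the deposited log2 table (adjusted p = 0.0405). Both were also called with the centring on probes between 6.03 and 8.26, which raises every difference by the same amount and with which 11.9% of all tested probes were called higher.

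Of the 15 probes of the other paralogues, 4 were called, all lower, with a median of -0.06. RPS27L had -0.14 (limma adjusted p = 0.00332) and RPS27 -0.15 (limma adjusted p = 0.0769). RPL22 was called at both probes, with -0.17 and -0.19, while RPL22L1 had 0.04 (limma adjusted p = 0.744), and whether these 2 differ was not tested. RPL36A had -0.26 (limma adjusted p = 0.0015). The 3 probes of RPL36AL gave -0.20, -0.0023 and 0.02, and of the 5 probes of RPL26L1 only the brightest was called, with -0.17, against -0.04 to -0.09. The probe named RPL10L had -0.16, and the 4 probes of RPL7L1, a factor of ribosome assembly, had -0.03 to -0.13 and none was called. With quantile normalization RPS27L and RPL36A were still called, while RPL22, RPL36AL, RPL26L1 and RPL10L had no call.

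The members without a call were not all dim. RPS4, the name under which the array lists 15 probes of the RPS4 transcript, had levels of 4.47 to 7.32 and differences of -0.04 to -0.10, and none of the 15 was called. Of the 83 genes 20 had no probe called, 12 in the large and 8 in the small subunit. Among them were RPL13A at levels of 6.21 and 6.36, and RPL9, RPL17, RPS2 and RPS9 at 1 probe each with levels of -0.38 to 2.60. The share of all genes without a called probe was not counted. The largest positive difference was that of 1 of 6 RPS10 probes, A_72_P505397, with 0.29 (standard error 0.15, limma adjusted p = 0.18), which starts at base 1338, whereas the 4 called RPS10 probes had -0.21. RPL39 and RPL39L had no probe under the rule. No gene had probes called in both directions.

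By diet, the difference between the lines was called at 120 of the 292 probes with HF feeding and at 37 with LF feeding, all lower, where 4.03% and 1.34% of all tested probes were called lower. Of these probes 34 were called on both diets. The median difference was -0.17 with the HF diet and -0.14 with the LF diet, and 273 probes were negative on both. With the HF diet 59 of 169 large and 61 of 123 small subunit probes were called, and with the LF diet 29 and 8. Without the high RFI array on the HF diet with the highest median signal, 76 probes were called on the HF diet, where 3.36% of all tested probes were called lower. A change of the line difference between diets (line by diet interaction) was not called at any member or other tested probe. The limma adjusted p was at least 0.395 over all tested probes, with 0% called. Of the members 2, of RPL13AP3 and RPL41, had an unadjusted p under 0.05, against 4.45% of all tested probes.

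Few ribosomal protein probes differed by diet. Between HF and LF 1 of 292 probes was called, where 0.42% of all tested probes were called, and 9 had an unadjusted p under 0.05 against 13.1%. This was O14934, a dim probe of RPL14, which ranged from 0.17 to 1.40 (median 0.96) and from -0.52 to 1.19 (median 0.61) in low and high RFI pigs on the HF diet, and from 0.76 to 1.48 (median 1.29) and from 0.46 to 1.39 (median 1.12) on the LF diet. It fell by 0.45 on the HF diet (standard error 0.11, limma adjusted p = 0.0435), and the call was lost under 7 alternatives. Other diet differences in that direction were -0.20 at another RPL14 probe, -0.19 at RPL27A and -0.18 at RPL38, and in the other 0.28 at RPS16, 0.16 at RPL22L1 and 0.07 at RPL6 (limma adjusted p from 0.245 to 0.793). Within the low RFI line and within the high RFI line no member was called by limma, where 0.199% and 0% of all tested probes were, and 4 members had an unadjusted p under 0.05 in each, against 11.6% and 5.47% of all tested probes.

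FAU and GNB2L1 also encode parts of the ribosome, although their symbols lie outside the rule. FAU, a ribosomal protein made as a fusion with a ubiquitin-like protein, was called lower at all 3 of its probes, with -0.19 to -0.23. GNB2L1 (RACK1), a scaffold on the small subunit, was called lower at all 8 of its probes, with -0.16 to -0.23. With quantile normalization 2 of the 3 and 3 of the 8 were called. Of the 101 probes of other TOP mRNAs, mainly elongation and initiation factors, 34 (33.7%) were called lower and 1 higher, with a median of -0.14, where 9.85% of all tested probes were called lower. The median level of these 101 probes was 5.92. Of the probes that are not members, 15.4% were called lower between levels of 4 and 6, and 21.5% between 6 and 8. Among the other TOP mRNAs EEF1D had -0.32, EIF3H -0.36 and EEF1A1, the carrier of aminoacyl-tRNA, -0.33 at its most different probe, while VIM had 0.30. With quantile normalization 17 (16.8%) were called lower and 4 higher, against 8.25% and 6.68% of all tested probes, and the EEF1A1 probe was not called, with -0.23 (limma adjusted p = 0.105).

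Of 133 probes for 73 genes of ribosome biogenesis 11 (8.27%) were called lower and 7 (5.26%) higher, with a median of -0.03, near the 9.85% and 6.57% of all tested probes. UTP18, of the small subunit processome, had -0.41, NOC3L -0.27 and HEATR1 -0.24, while MYC, which drives the transcription of ribosomal genes, had 0.62, WDR36 0.35 and WDR12 0.34. Of the 34 probes of regulators of ribosomal protein synthesis, 8 (23.5%) were called lower and 5 (14.7%) higher, with a median of -0.09, and with quantile normalization 5 were called lower and 5 higher. MYC is in both lists, so that its probes count in both, and all 4 of them were called higher, with 0.50 to 0.62. RPS6KA1 had 0.41. TIAL1, which binds TOP mRNAs under stress, had -0.23, RPS6KB1, the S6 kinase, -0.18 and RPS6KA3 -0.16, while MTOR had -0.09 and -0.07 and LARP1 -0.12, and none of these 3 probes was called (limma adjusted p of 0.107, 0.315 and 0.12).

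The proteins of the mitochondrial ribosome, which are encoded by separate genes, had 17 of 79 probes (21.5%) called lower and none higher, with a median of -0.06 at a median level of 2.76, where 12.8% of the other probes between levels of 2 and 4 were called lower. The largest differences were those of MRPL9, with -0.47 (limma adjusted p = 1.01e-06), MRPL52 with -0.30 and MRPL21 with -0.26. With quantile normalization 13 (16.5%) were called lower and 1 higher.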

How the data were processed

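The authors deposited scanner files with spot intensities, made by Agilent Feature Extraction on one-colour arrays, and a table of log2 values, which on comparison were the logged median spot signals with each array's own median subtracted. The submitters' notes name R 2.10.0. Arrays lay on 6 slides of 8 and were scanned on 2 days. Here control and outlier spots were left out, spots of a probe were averaged, and logged processed signals were mean-centred by array, after the study's methods, over the 42125 probes whose signal passed the scanner's background test in 12 or more of 48 pigs. Members had 1 missing value. Contrasts of the 4 groups were fitted by limma 3.58.1 (R 4.3.3), and p-values were adjusted by Benjamini-Hochberg over all tested probes, with calls at 0.05. In a simulated line difference over 41957 probes, 200 of them changed, this recovered 78.5% of differences of 0.5 and 13% of differences of 0.2. The changed probes were drawn at random, and most probes are dimmer than the members. In the data far more probes differed, with 4151 called lower and 2768 higher, which makes the adjustment less strict. The simulated shares therefore do not measure the recovery of members. The pigs were separate animals, and their number limits the precision. No genome build was given in the sources used here.

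The members, the gene lists and the tests were chosen with earlier results of these data known. Genes were named by rule: the 6 with the largest line difference in each direction, the 4 probes with the largest diet difference in each direction, up to 10 genes with at least 3 probes all called, 23 fixed symbols (20 with a tested probe), and in other lists the 3 largest in each direction. RPL9, RPL13A, RPL17, RPS2, RPS4, RPS9, RPS10, RPL13AP3, RPL41, MTOR and LARP1 were named after their values were seen. RPL7L1, RPL10L and RPL26L1, the paralogues outside these rules, were named as well. Alternatives covered scaling, background, filter, outlier spots, slide, scan day, brightness, the deposited table, gene means and the variance analysis of the methods. Some genes that the rules name are not reported here.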

Additional observations from a re-analysis of the deposited data

How the results depend on the processing

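The count of ribosomal protein probes that differed between the lines moved by over 1.5 times with 3 of the 14 alternatives, to 63 with quantile normalization, 93 without the filter on dim probes and 70 with centring on other probes of a similar level, and the count of genes at the brightest probe moved to 21, 28 and 21 with the same 3. As gene means 59 of 83 genes were called, where 11.1% of all 10080 symbols were called lower. On the HF diet the count was 30 with quantile normalization, 53 with normexp background correction, 23 without the filter, 40 with array brightness as a covariate, 76 without the brightest array and 30 with centring on probes of a similar level. On the LF diet it was 20, 24 and 17 with quantile normalization, normexp and no filter, and 20 with centring on probes of a similar level. For these alternatives within a diet, the share of all tested probes was counted only without the brightest array (3.36% lower on the HF diet). It was not counted for genes at the brightest probe. Whether the members moved more than all tested probes is therefore not known for those counts. The 1 diet call became 0 with the 75th percentile, quantile normalization, normexp, no filter, the ordinary variance analysis, without the brightest array and with centring on probes of a similar level. The last 2 alternatives, the brightest array and the similar level, were chosen after seeing the data. The medians stayed between -0.15 and -0.06 for both subunits. None of the alternatives reversed the direction of a called named probe, and of 556 values of 40 named probes 496 kept their side of the threshold, 47 lost the call and 13 gained one. No paired analysis was possible because the labels give no number shared by pigs of different groups. Dim members give less than bright ones, since 14 had a mean level under 0. The cause of these changes was not tested.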
